A study of Mus musculus with 6 samples.

Results

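The genes of glycolysis, glucose uptake and pyruvate handling were followed in cultured mouse neural stem and progenitor cells as a list of 32 genes, chosen by name and matched through their Entrez identifiers, out of 17254 genes listed in the deposited tables. All 32 were found, and all 32 passed the filter on low counts that left 12813 genes for testing. The study has 3 groups of 2 RNA sequencing libraries: cells given PQ, cells given NAC, and control cells, with 48 h of treatment. All 3 groups were cultured in N2 medium to which EGF and bFGF had been added, growth factors that keep such cells dividing. The labels spell out neither PQ nor NAC and give no dose, mouse strain or age, and the series text gives the aim as shifting the redox state inside the cells and measuring the gene expression that followed. Whether the paired libraries of a group are separate cultures is not stated, so p-values reflect library-to-library spread that may be technical only. These are bulk cultures, in which fewer cells of a type and less RNA per cell cannot be told apart.

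Glycolysis splits glucose into pyruvate in the cytosol. Pyruvate is then either reduced to lactate and exported or carried into mitochondria, where the pyruvate dehydrogenase complex turns it into acetyl-CoA. Neural stem and progenitor cells are known for relying strongly on glycolysis, and many genes of the pathway are targets of the hypoxia-inducible factors (HIF) and of Myc. Several steps have paralogous genes whose products differ in kinetics, regulation or tissue of use.

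Library depth was 9680436 to 10698241 expected counts. Levels below are CPM (counts scaled to a common library size with TMM factors) when libraries are compared, and deposited FPKM (per length and depth) when genes are compared. Each comparison was tested over all 12813 genes with edgeR's quasi-likelihood test, adjusted p-values (Benjamini-Hochberg) were called below 0.05, and errors of log2 fold changes are standard errors (SE). The comparisons with control use the same control libraries. Among the stem cell markers, Sox2 stood at 301 and 296 CPM with PQ, 302 and 314 CPM with NAC, and 352 and 413 CPM in control, and Nes, Vim and Fabp7 were also abundant. Sox2 was called lower with PQ (log2 fold change -0.36, adjusted p = 0.0139) and with NAC (log2 fold change -0.31, adjusted p = 0.0279). Neither call held in every alternative setting run. Prom1 was at most 0.416 CPM and Hes5 at most 0.208 CPM in every library. Of the oligodendrocyte lineage markers, Olig1 stood at 711.1 to 1178.9 CPM and Olig2 at 663.6 to 858.5 CPM. Sox10 and Mbp did not pass the filter, and Mog was in no table. Of 9 neuronal markers, Rbfox3 was in no table, Dcx was at most 0.777 CPM and Tubb3 at most 4.25 CPM, whereas Map2 stood at 179.8 to 359 CPM and Eno2, which is also 1 of the 32 genes, at 81.8 to 209 CPM. Map2 had 191 and 179.8 CPM with PQ, 359 and 318 CPM with NAC, and 194 and 204 CPM in control and rose with NAC (log2 fold change 0.77 ± 0.09, adjusted p = 1.43e-05), and the summed microglia and blood markers came to 2.16 to 4.47 CPM.

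With NAC the pathway was lower at nearly every cytosolic step. Of the 32 genes 21 fell and 0 rose against control, where 9.26% of all tested genes were called lower and 8.65% higher. With library size as the only scaling 21 fell and 1 rose (Slc16a1), and the split over all genes was 1392 higher and 986 lower in place of 1108 and 1186. Wherever a count of 0 is given here for a list, DESeq2 and limma also called 0, and the number at an unadjusted p under 0.05 stands beside it. Among these 32 genes that number was 4 in the higher direction (Pfkm, Slc16a1, Pdk2 and Mpc1). The median log2 fold change of the 32 genes was -0.59, beside -0.00 over all tested genes. In 23 of the 32 both NAC libraries lay below both control libraries, which held for 28.3% of all tested genes. The calls covered both glucose transporters, 7 of 8 genes from hexokinase to triosephosphate isomerase, 6 of 6 from Gapdh to pyruvate kinase, Ldha, the lactate exporter Slc16a3, 2 of 3 pyruvate dehydrogenase kinases, Pdhb and Gys1.

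With PQ few of these genes were called against control. In simulated data 64.2% of 67 genes with a 1.5-fold change were found in this comparison. Those genes were drawn from all tested genes at any level, and 179 genes were called there, against 2289 in the data. The share is therefore not a detection rate for these 32 genes, and a gene not called may still differ. Ldhb rose, and Hk2, Pfkl and Ldha fell, while 28 of the 32 were not called. Over all tested genes 9.07% were called higher and 8.80% lower, so 1 of 32 higher was below that background and 3 of 32 lower was near it. Without control replicate 1 or PQ replicate 2 only 1 gene was lower, and without control replicate 1 a second gene, Pfkfb4, was higher. The median log2 fold change of the 32 genes was -0.05, beside -0.00 over all tested genes. In 7 genes both PQ libraries lay above both control libraries, and in 11 they lay below, against 29.0% and 28.2% of all tested genes.

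PQ and NAC were also set against each other, since the study moved the cells with 2 agents. In the PQ against NAC comparison 24 of the 32 genes were higher with PQ and 0 lower, where 15.5% of all tested genes were higher and 15.1% lower. At an unadjusted p under 0.05 the number lower was also 0. This comparison uses the same NAC libraries as NAC against control, so it is not a separate result. Of the 24 genes, 18 were called lower with NAC against control and not called with PQ against control. Hk2 and Ldha were lower with both agents and Ldhb was higher with PQ, while Pfkfb3, Pfkfb4 and Dlat were called in neither comparison with control. Leaving out each library in turn left 18 to 24 genes higher. The median log2 fold change was 0.53, beside 0.00 over all tested genes. Both PQ libraries lay above both NAC libraries in 24 genes, against 33.1% of all tested genes, and below them in 4, against 32.9%.

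**Figure D1:**
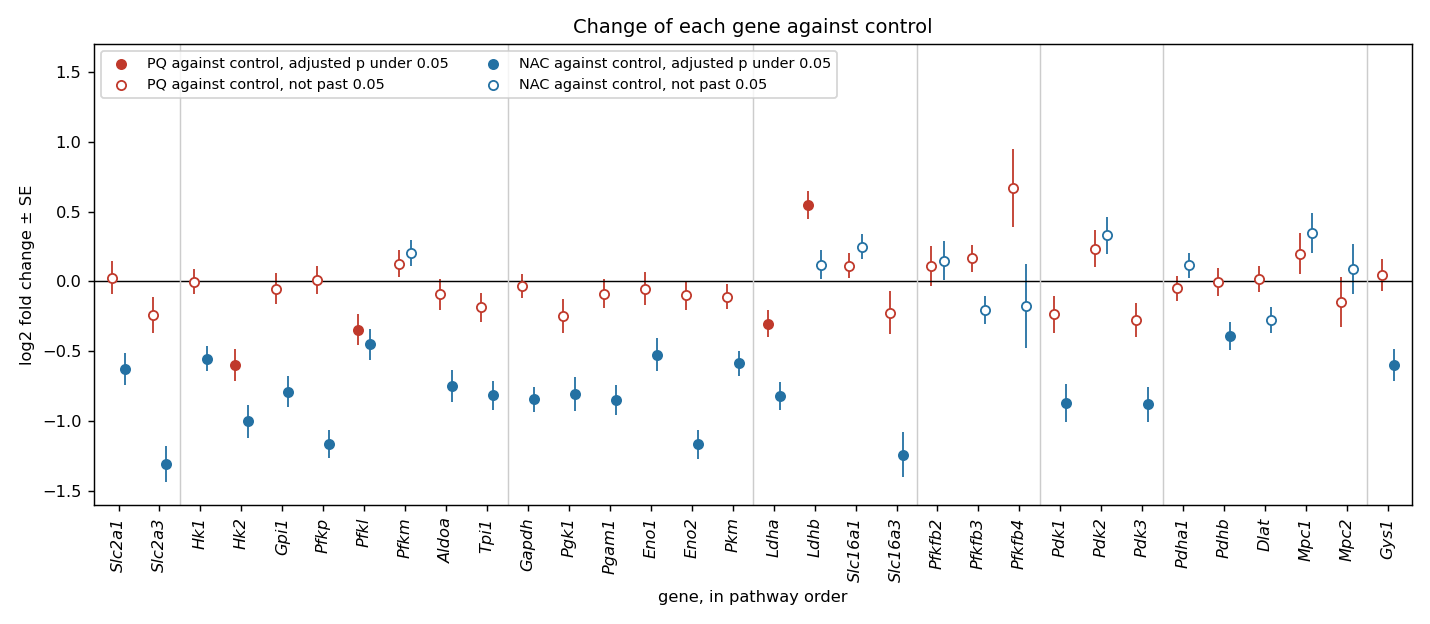
The vertical axis gives log2 fold changes with SE bars for the 32 genes in pathway order, for PQ against control (red) and NAC against control (blue), with filled points where edgeR's adjusted p was under 0.05. NAC points lie below 0 for all genes of the lower pathway from Gapdh to Pkm, while most PQ points lie near 0, with Ldhb at 0.55 and Hk2 at -0.60 among the 4 called exceptions.

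The amount of RNA involved was large. The 16 genes of glycolytic enzymes and lactate dehydrogenases held 3.23% and 3.04% of all expected counts in the PQ libraries. They held 1.84% and 2.18% in the NAC libraries, and 3.47% and 3.09% in the control libraries. Both NAC libraries were thus below the other 4, which overlapped. Per length, Gapdh had the highest mean FPKM of all genes with PQ and in control, and the second highest with NAC. Pkm had rank 7 with PQ, rank 15 with NAC and rank 7 in control, and Gpi1 had rank 8 with PQ, rank 34 with NAC and rank 9 in control. At the other end, Pfkfb4 averaged 2.09 ± 0.311 FPKM with PQ, 1.19 ± 0.474 FPKM with NAC, and 1.29 ± 0.417 FPKM in control (SD, n = 2).

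**Figure D2:**
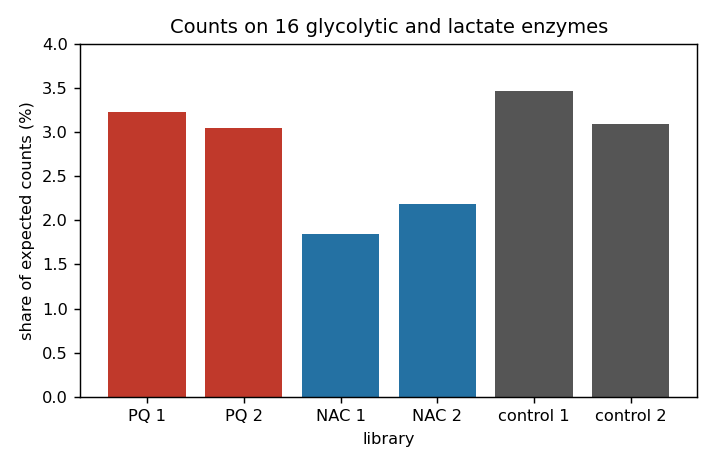
Bars give the percentage of a library's expected counts that fell on 16 glycolytic and lactate dehydrogenase genes, 1 bar per library, with no error because each is 1 library. The NAC bars stand at 1.84% and 2.18%, below 3.04% to 3.47% in the PQ and control libraries.

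The 2 NAC libraries differed between themselves in these genes. NAC replicate 1 was the higher of the pair in only 8 of the 32 genes, with a median log2 ratio of replicate 1 to replicate 2 of -0.20. The other pairs leaned to 1 side too, with replicate 1 higher in 23 of the 32 genes with PQ and in 24 in control. Their median log2 ratios were 0.08 and 0.09. Most of the 32 genes thus moved together within each pair, so they are not separate observations. The median absolute log2 ratio of the NAC pair over the 32 genes was 0.24, beside 0.13 over all tested genes. The same value was 0.09 for the PQ pair and 0.12 for the control pair. Without NAC replicate 1 the median log2 fold change of the 32 genes against control was -0.50, and without NAC replicate 2 it was -0.68. Without control replicate 1 it was -0.51, and without control replicate 2 it was -0.72.

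**Figure D3:**
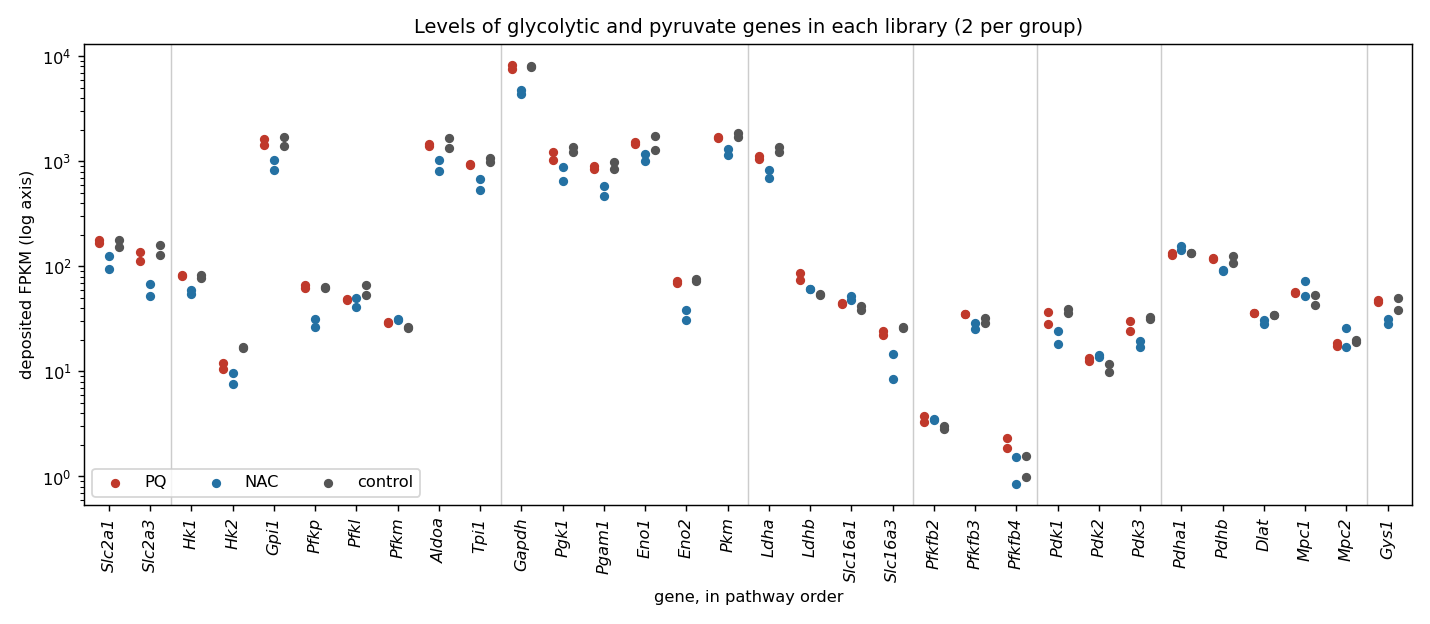
Points give deposited FPKM on a log axis, 1 per library, for PQ (red), NAC (blue) and control (grey), in pathway order from glucose transport to glycogen synthase. The abundant genes from Gpi1 and Aldoa to Pkm and Ldha have their blue points lowest, whereas Pfkm, Slc16a1, Pdk2 and Pdha1 do not.

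HIF dimers bind the letters ACGTG or GCGTG, and Myc dimers bind CACGTG. Promoter windows (250 bases before to 50 after a start, RefSeq, GRCm38.p6) were available for 31 of the 32 genes, all but Slc2a3, as 47 windows. ACGTG was searched on both strands, so that a palindromic CACGTG counts as 2 matches, and GCGTG likewise. Of the 47 windows 35 (74.5%) held either motif, against 62.1% of 13045 windows of tested genes and 43.8% of all 32851 windows. ACGTG was in 21 windows (44.7%), against 25.3% of the windows of tested genes and 19.6% of all. CACGTG was in 6 (12.8%), against 9.89% of those of tested genes and 7.15% of all. Windows of the 32 genes had a median GC content of 62.0%, near the 61.0% for tested genes. Of the genes lower with NAC, 12 of the 20 with a window held ACGTG in at least 1 window, as did 5 of the 11 not called and 29.3% of all tested genes with a window. Either motif was held by 16 of those 20, by 10 of the 11 not called and by 68.0% of all tested genes with a window, so the order of the 2 sets depended on the motif counted. The 31 genes had 47 windows and the 10218 tested genes with a window had 13045, and a gene with more windows has more chances of a match. Some windows of the same gene also overlap, so these shares are not like for like. A match describes letters only, and binding was not measured.

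The windows printed here are the 2 of genes called with NAC that held most matches, Ldha and Hk1, and the 2 of those with the largest fall that had a window, Slc16a3 and Eno2, so that the letters can be compared with the size of the change. Capitals mark matches to either motif on either strand. The Ldha window (chr7:46845554-46845853, plus strand) held 5 ACGTG and 2 GCGTG matches, including 2 palindromic CACGTG. The Hk1 window (chr10:62340372-62340671, minus strand) held 2 ACGTG and 3 GCGTG matches, and Slc16a3 (chr11:120948817-120949116, plus strand) held 2 ACGTG. Ldha and Hk1 each have another window, not printed, with fewer matches: 0 ACGTG and 2 GCGTG for Ldha, and 0 of either for Hk1. Eno2 (chr6:124769624-124769923, minus strand), which fell more than Ldha or Hk1 did, held 0 matches in its window.
Ldha: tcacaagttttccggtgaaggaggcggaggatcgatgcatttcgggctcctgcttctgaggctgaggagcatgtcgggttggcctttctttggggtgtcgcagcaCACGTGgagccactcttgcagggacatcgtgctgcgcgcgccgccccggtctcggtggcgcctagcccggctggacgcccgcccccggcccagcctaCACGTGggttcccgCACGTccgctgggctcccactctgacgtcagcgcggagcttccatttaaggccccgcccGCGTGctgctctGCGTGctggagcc
Hk1: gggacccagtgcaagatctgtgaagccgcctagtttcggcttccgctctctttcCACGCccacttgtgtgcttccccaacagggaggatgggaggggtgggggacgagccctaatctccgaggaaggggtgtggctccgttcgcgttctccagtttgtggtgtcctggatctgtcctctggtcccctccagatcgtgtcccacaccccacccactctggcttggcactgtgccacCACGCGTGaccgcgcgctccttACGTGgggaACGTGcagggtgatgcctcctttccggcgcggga
Slc16a3: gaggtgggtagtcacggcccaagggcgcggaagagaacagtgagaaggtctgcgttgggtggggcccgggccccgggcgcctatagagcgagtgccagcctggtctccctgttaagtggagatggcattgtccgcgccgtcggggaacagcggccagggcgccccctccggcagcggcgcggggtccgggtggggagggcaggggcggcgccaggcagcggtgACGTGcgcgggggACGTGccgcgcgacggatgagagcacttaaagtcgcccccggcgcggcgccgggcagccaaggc
Eno2: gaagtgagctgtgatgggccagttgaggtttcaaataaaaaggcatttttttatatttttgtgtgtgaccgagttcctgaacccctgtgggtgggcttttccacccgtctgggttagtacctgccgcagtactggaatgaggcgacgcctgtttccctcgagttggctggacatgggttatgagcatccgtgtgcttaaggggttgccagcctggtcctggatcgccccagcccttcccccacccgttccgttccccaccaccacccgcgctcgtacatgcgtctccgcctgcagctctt

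Glucose entry comes first in pathway order, and both of its genes fell with NAC. Slc2a3, the high-affinity transporter GLUT3 known from neurons (chromosome 6, 122727809 to 122802363), had 552 and 445 CPM with PQ, 208 and 267 CPM with NAC, and 655 and 520.1 CPM in control. Both NAC libraries were below the other 4, and the PQ and control libraries overlapped. Slc2a3 fell 2.48-fold with NAC, with log2 fold change -1.31 ± 0.13, adjusted p = 1.51e-06, the largest fall of the 32 genes, and against control with PQ its log2 fold change was -0.24 (adjusted p = 0.227; without control replicate 2, -0.39 with adjusted p = 0.0422). Slc2a1, the widespread transporter GLUT1, had 460.1 and 424 CPM with PQ, 242 and 320.2 CPM with NAC, and 467 and 401 CPM in control. It too fell with NAC, to below every PQ and control library (log2 fold change -0.63 ± 0.12, adjusted p = 0.000886), and PQ and control overlapped (log2 fold change 0.03 ± 0.12, adjusted p = 0.909). Of the summed FPKM of both transporters, Slc2a3 made up 43.6% and 40.3% with PQ, 35.6% and 34.9% with NAC, and 47.5% and 45.5% in control.

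The upper steps turn glucose into triose phosphates. Hexokinase traps glucose as glucose-6-phosphate, and Hk2, its inducible form (chromosome 6, 82725025 to 82774454), was called in each of the 3 comparisons. It had 67.6 and 58.2 CPM with PQ, 42.4 and 52.97 CPM with NAC, and 95.7 and 95.1 CPM in control. All 4 treated libraries were below both control libraries, and the NAC libraries were the lowest. Hk2 fell with PQ (log2 fold change -0.60 ± 0.11, adjusted p = 0.00127) and with NAC (log2 fold change -1.0021 ± 0.12, adjusted p = 7.14e-06), and PQ stood above NAC (log2 fold change 0.40 ± 0.12, adjusted p = 0.0154). That last call was lost without PQ replicate 1 (adjusted p = 0.188) or NAC replicate 1 (adjusted p = 0.234). Hk1, the constitutive hexokinase, had 345 and 339 CPM with PQ, 225 and 243 CPM with NAC, and 351 and 335 CPM in control. It fell with NAC (log2 fold change -0.55 ± 0.09, adjusted p = 0.000234), whereas the PQ and control libraries overlapped with a log2 fold change of -0.00. Hk2 made up 12.8% and 11.4% with PQ, 12.4% and 14.1% with NAC, and 17.01% and 17.6% in control of hexokinase FPKM, so its share was lower in all 4 treated libraries than in control.

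Gpi1, the isomerase that follows hexokinase, had 4672 and 4084 CPM with PQ, 2366 and 2890.4 CPM with NAC, and 5002 and 4083 CPM in control. It fell 1.73-fold with NAC (log2 fold change -0.79 ± 0.11, adjusted p = 6.34e-05), and PQ and control overlapped. Phosphofructokinase, the main point of control of the pathway, has 3 genes, of which 1 was called with PQ and 2 with NAC. Pfkp, the platelet type (chromosome 13, 6579874 to 6649060), had 270.3 and 246 CPM with PQ, 106 and 123 CPM with NAC, and 258 and 255 CPM in control. It fell 2.24-fold with NAC (log2 fold change -1.16 ± 0.10, adjusted p = 2.76e-07) and was not called between PQ and control (log2 fold change 0.01 ± 0.10, adjusted p = 0.961). Pfkl, the liver type, had 180.1 and 179.9 CPM with PQ, 152 and 183 CPM with NAC, and 252 and 206 CPM in control. It was called lower with PQ (log2 fold change -0.35 ± 0.11, adjusted p = 0.0377) and with NAC (log2 fold change -0.45 ± 0.11, adjusted p = 0.00792), and both calls depended on single libraries. Without control replicate 1 its log2 fold change was -0.19 with PQ (adjusted p = 0.286) and -0.29 with NAC (adjusted p = 0.0851), and without NAC replicate 1 the NAC value was -0.32 (adjusted p = 0.140). Without a PQ library, adjusted p of its PQ value was 0.146 or 0.193.

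Pfkm, the muscle type, had 84.5 and 84.7 CPM with PQ, 88.1 and 90.2 CPM with NAC, and 76.0 and 79.0 CPM in control. All 4 treated libraries were above both control libraries, and neither difference passed the test (log2 fold change 0.13 with PQ, adjusted p = 0.405, and 0.20 with NAC, adjusted p = 0.157). In FPKM, Pfkp made up 46.6% and 44.4% with PQ, 27.2% and 27.7% with NAC, and 40.9% and 43.7% in control of the 3 genes, and Pfkm 20.3% and 21.1% with PQ, 31.3% and 28.2% with NAC, and 16.6% and 18.7% in control. The leading gene was therefore Pfkp with PQ and Pfkl with NAC, while the 2 control libraries differed in which of them led. With 2 libraries a group an exact permutation test of a share cannot go below a p of 0.333, so shares carry no test. Aldoa and Tpi1, aldolase and triosephosphate isomerase, close this stretch. Aldoa had 2255 and 2103 CPM with PQ, 1220.3 and 1544 CPM with NAC, and 2563 and 2087 CPM in control, and Tpi1 had 1497 and 1443 CPM with PQ, 840.2 and 1058 CPM with NAC, and 1751 and 1592 CPM in control. Both fell with NAC, Aldoa with -0.75 and Tpi1 with -0.82 as log2 fold changes (adjusted p = 0.000117 and 1.90e-05), and neither was called with PQ (-0.09 and -0.18).

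**Figure D4:**
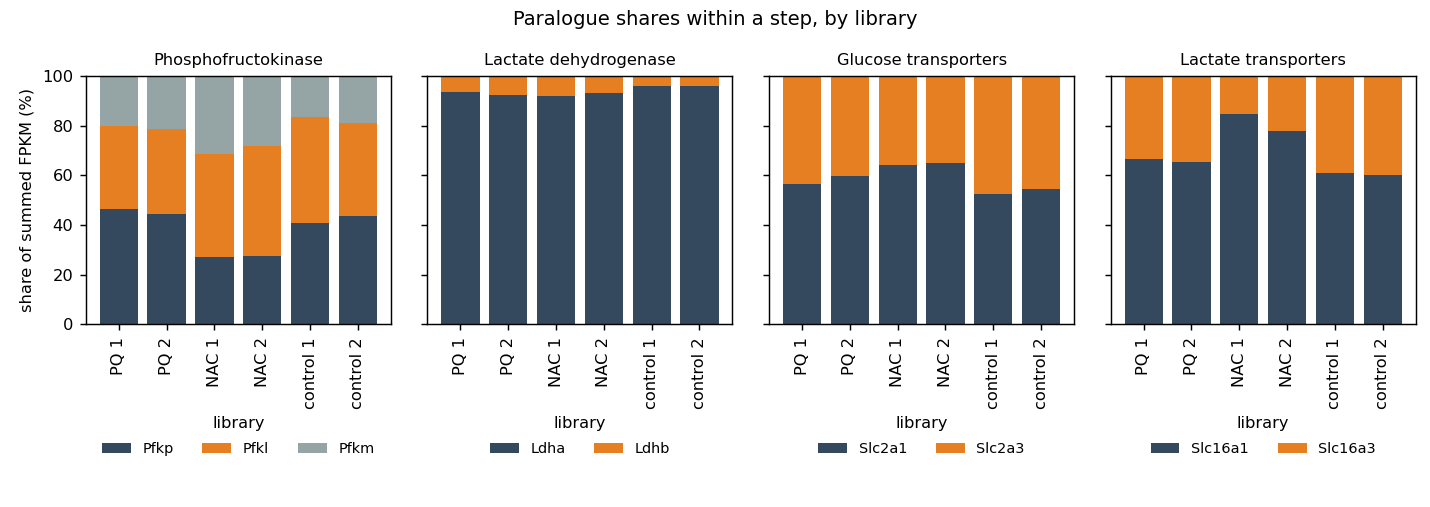
Stacked bars give each paralogue's percentage of the summed FPKM of its step, 1 bar per library and 1 panel per step, ordered PQ, NAC, control. The Pfkp segment is 27.2% and 27.7% in the NAC libraries and 40.9% to 46.6% in the other 4, and the Ldhb segment is 6.29% to 8.15% in treated libraries against 3.85% and 4.14% in control.

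The lower steps recover ATP and end in pyruvate, and all 6 genes fell with NAC, where DESeq2 called 5. With PQ 0 of the 6 were called, and 0 had an unadjusted p under 0.05. Gapdh, which oxidises glyceraldehyde-3-phosphate and makes NADH (chromosome 6, 125161852 to 125166467), had 10314 and 9327 CPM with PQ, 5329.8 and 5845 CPM with NAC, and 10084 and 9994 CPM in control. It fell 1.80-fold with NAC (log2 fold change -0.85 ± 0.09, adjusted p = 2.32e-06), both NAC libraries being below the other 4, and PQ and control overlapped (log2 fold change -0.03 ± 0.09, adjusted p = 0.8495). Pgk1, the first ATP-making step, had 2223 and 1819.9 CPM with PQ, 1176 and 1567 CPM with NAC, and 2519 and 2281 CPM in control, a fall of log2 fold change -0.81 ± 0.12, adjusted p = 0.000107 with NAC. Its PQ libraries were also below control without passing the test (-0.25, adjusted p = 0.173). Pgam1, the mutase, had 1683 and 1543 CPM with PQ, 853 and 1049.8 CPM with NAC, and 1841 and 1588 CPM in control and fell 1.80-fold with NAC (adjusted p = 1.61e-05).

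Enolase is encoded by a pair of listed paralogues, both lower with NAC. Eno2, the form known as neuron-specific enolase, had 196 and 183 CPM with PQ, 81.8 and 99.4 CPM with NAC, and 198 and 209 CPM in control. It fell 2.24-fold with NAC (log2 fold change -1.17 ± 0.11, adjusted p = 4.44e-07), and its PQ libraries were just below control (-0.10, adjusted p = 0.559). Of the other neuronal genes, Tubb3 was at most 4.25 CPM and fell with NAC, Map2 rose with NAC, and their part in the Eno2 result was not tested. Eno1, the main enolase, had 2702 and 2753 CPM with PQ, 1807 and 2122 CPM with NAC, and 3251 and 2406 CPM in control, and its fall with NAC (log2 fold change -0.53 ± 0.12, adjusted p = 0.00376) is uncertain. Its transcript is 99.5% identical over 85.6% of its length to Eno1b, a copy listed as a gene of its own, which had 1769 and 1585 CPM with PQ, 1064 and 1326 CPM with NAC, and 1944 and 1503 CPM in control, so the counting could split reads between them. With both summed, the NAC log2 fold change was -0.53 (adjusted p = 0.00344) and the PQ value -0.05. The call was also lost without control replicate 1 (-0.29, adjusted p = 0.0770), without NAC replicate 1 (-0.41, adjusted p = 0.0707), and with DESeq2 (adjusted p = 0.0586). Pkm, pyruvate kinase, had 4116 and 4084 CPM with PQ, 2755 and 3133 CPM with NAC, and 4577 and 4264 CPM in control and fell with NAC (log2 fold change -0.59 ± 0.09, adjusted p = 0.000130). Its 2 splice forms, M1 and M2, are counted together in these tables.

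At lactate dehydrogenase PQ moved both paralogues, in opposite directions. Ldha, whose subunit favours making lactate (chromosome 7, 46842274 to 46855627), had 1855 and 1702 CPM with PQ, 1133 and 1353 CPM with NAC, and 2303 and 2084 CPM in control. All 4 treated libraries were below both control libraries, with NAC lowest. Ldha fell with PQ (log2 fold change -0.30 ± 0.10, adjusted p = 0.0404) and with NAC (log2 fold change -0.82 ± 0.10, adjusted p = 1.17e-05). The PQ call did not hold without either PQ library (adjusted p = 0.0687 and 0.295) or without control replicate 1 (adjusted p = 0.182). Ldhb, whose subunit favours using lactate (chromosome 6, 142490249 to 142507957), had 98.6 and 113 CPM with PQ, 79.6 and 77.3 CPM with NAC, and 73.0 and 71.4 CPM in control. It was the only one of the 32 genes called higher with PQ, 1.46-fold (log2 fold change 0.55 ± 0.10, adjusted p = 0.000908), and it kept that call in all 17 alternative settings run. With NAC its log2 fold change was 0.12 (adjusted p = 0.458), with both libraries above control. Ldhb made up 6.29% and 7.72% with PQ, 8.15% and 6.73% with NAC, and 3.85% and 4.14% in control of the FPKM of both genes. Its share was thus higher in all 4 treated libraries than in control.

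Lactate leaves or enters through monocarboxylate transporters. Slc16a3 (MCT4), the exporter of strongly glycolytic cells, had 54.7 and 58.4 CPM with PQ, 20.8 and 35.3 CPM with NAC, and 67.0 and 65.0 CPM in control. It fell 2.36-fold with NAC (log2 fold change -1.24 ± 0.16, adjusted p = 2.37e-05), though the 2 NAC libraries lay well apart. When each library was left out in turn its log2 fold change lay between -1.67 and -0.90, and it kept its call. With PQ it was -0.22 (adjusted p = 0.350). Slc16a1 (MCT1), which carries lactate both ways, had 199 and 199 CPM with PQ, 211 and 226 CPM with NAC, and 191 and 177 CPM in control. Both NAC libraries were above control, a difference that did not pass the test (0.25, adjusted p = 0.0688). Slc16a3 therefore made up 33.3% and 34.7% with PQ, 15.1% and 22.1% with NAC, and 38.9% and 40.0% in control of the FPKM of both transporters.

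The bifunctional enzymes that set fructose-2,6-bisphosphate, the activator of phosphofructokinase, were not called against control with PQ or NAC (1 of 3 with PQ, Pfkfb4, and 0 with NAC at an unadjusted p under 0.05). Pfkfb3, the most abundant of them and strongly kinase-biased, had 177 and 173 CPM with PQ, 127 and 144 CPM with NAC, and 165 and 147 CPM in control. PQ stood above NAC (log2 fold change 0.37 ± 0.10, adjusted p = 0.00826), a call that was lost without PQ replicate 1 (adjusted p = 0.0661) or NAC replicate 1 (adjusted p = 0.126). Pfkfb4 was low, with 7.91 and 6.27 CPM with PQ, 2.87 and 5.05 CPM with NAC, and 5.46 and 3.43 CPM in control. Both PQ libraries were above the other 4, but only PQ against NAC passed the test (log2 fold change 0.84 ± 0.28, adjusted p = 0.0299), and not with DESeq2 (adjusted p = 0.141), without PQ replicate 1 (adjusted p = 0.195) or without NAC replicate 1 (adjusted p = 0.304). Against control with PQ it was 0.67 (adjusted p = 0.111), and 1.04 without control replicate 1 (adjusted p = 0.0332). Pfkfb2, the heart form, had 19.3 and 21.5 CPM with PQ, 20.7 and 21.2 CPM with NAC, and 19.4 and 18.4 CPM in control, and no comparison was called.

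Pyruvate dehydrogenase kinases switch off the entry of pyruvate carbon into the citric acid cycle. Pdk1, a known HIF target, had 193 and 144 CPM with PQ, 93.0 and 124 CPM with NAC, and 205 and 191 CPM in control, and Pdk3 had 60.8 and 48.0 CPM with PQ, 38.3 and 33.2 CPM with NAC, and 63.9 and 67.7 CPM in control. Both fell with NAC, Pdk1 1.83-fold (log2 fold change -0.87 ± 0.14, adjusted p = 0.000144) and Pdk3 1.84-fold (log2 fold change -0.88 ± 0.12, adjusted p = 5.57e-05). In each the 2 NAC libraries were the lowest of the 6, and the PQ libraries lay apart from each other. Without PQ replicate 1, Pdk3 was also called lower with PQ (-0.45, adjusted p = 0.0499). Pdk2, the widely expressed kinase, had 29.0 and 30.2 CPM with PQ, 32.6 and 30.6 CPM with NAC, and 22.8 and 27.5 CPM in control. All 4 treated libraries were above both control libraries, and neither difference was called (0.24 with PQ, adjusted p = 0.247, and 0.33 with NAC, adjusted p = 0.0929, but 0.47 with adjusted p = 0.0377 without control replicate 2). Pdk2 made up 15.9% and 20.4% with PQ, 27.8% and 24.9% with NAC, and 12.3% and 14.6% in control of kinase FPKM.

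On the mitochondrial side only Pdhb was called with NAC, and 0 genes were called with PQ. Pdhb, the beta subunit of the E1 enzyme of the complex, had 178 and 169.7 CPM with PQ, 135 and 132 CPM with NAC, and 160.0 and 189 CPM in control. It fell 1.31-fold with NAC (log2 fold change -0.39 ± 0.10, adjusted p = 0.00994), and this call was lost without either NAC library (adjusted p = 0.0535 and 0.0741) or without control replicate 2 (adjusted p = 0.125). Pdha1, the alpha subunit, had 379 and 357 CPM with PQ, 433 and 392.2 CPM with NAC, and 379.7 and 382 CPM in control, with a NAC log2 fold change of 0.11 (adjusted p = 0.425). Dlat, the E2 enzyme, had 148 and 144 CPM with PQ, 125 and 113 CPM with NAC, and 144 and 144 CPM in control. Both of its NAC libraries were below the other 4, at -0.27 against control (adjusted p = 0.0520), and PQ against NAC was called (log2 fold change 0.29 ± 0.09, adjusted p = 0.0247), but not without either PQ library (adjusted p = 0.145 and 0.0979) or NAC replicate 2 (adjusted p = 0.206). Mpc1 and Mpc2 form the mitochondrial pyruvate carrier, and neither was called in any of the 3 comparisons. Mpc1 had 49.2 and 49.99 CPM with PQ, 64.3 and 45.6 CPM with NAC, and 38.2 and 48.4 CPM in control, and Mpc2 had 14.5 and 15.3 CPM with PQ, 21.1 and 13.9 CPM with NAC, and 15.97 and 17.04 CPM in control, with NAC replicate 1 the highest library for both genes. Without NAC replicate 2 the log2 fold change of Mpc1 with NAC was 0.57 (adjusted p = 0.0141), and without control replicate 2 it was 0.53 (adjusted p = 0.0203). PQ against NAC for Mpc2 was called without NAC replicate 2 (-0.51, adjusted p = 0.0496). Gys1, glycogen synthase, had 177 and 166 CPM with PQ, 104 and 115 CPM with NAC, and 188 and 145 CPM in control. It fell with NAC (log2 fold change -0.60 ± 0.11, adjusted p = 0.00106), with PQ and control overlapping.

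In 9 of the 32 genes some exonic bases are shared with a gene on the opposite strand, and whether reads were counted by strand is not given in the sources used here. The overlap covers 23.1% of the exonic bases of Mpc1, 16.2% of Pdha1, 6.47% of Gys1 and 5.58% of Pfkp, and 0.54% to 2.12% in Hk1, Pfkm, Tpi1, Gapdh and Pfkfb2. The partner of Gys1, Ruvbl2, had 92.0 and 91.1 CPM with PQ, 88.5 and 91.4 CPM with NAC, and 143 and 119 CPM in control, and it was lower with PQ (-0.52) and with NAC (-0.54). The partner of Pfkp, Pitrm1, had 84.4 and 85.7 CPM with PQ, 107 and 97.2 CPM with NAC, and 105 and 109.5 CPM in control, with a NAC log2 fold change of -0.07.

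Neighbouring pathways were read from lists written with earlier results known, by counts beside the 17.9% of all tested genes called in either direction in each comparison with control. Among 27 tested HIF factors, oxygen sensors and targets outside glycolysis, 1 rose and 5 fell with PQ, and 0 rose and 18 fell with NAC (median log2 fold changes -0.17 and -0.62). None of those 27 rose with NAC at an unadjusted p under 0.05 either, and DESeq2 called 17 lower. With NAC the 4 of smallest p were Ero1a, Ddit4, Ndrg1 and Higd1a. Ddit4, an inhibitor of mTORC1 signalling, had 130.2 and 108 CPM with PQ, 51.8 and 69.4 CPM with NAC, and 185 and 165 CPM in control, and Higd1a, a mitochondrial protein, had 119.7 and 109 CPM with PQ, 58.5 and 69.3 CPM with NAC, and 128 and 129 CPM in control. Hif1a itself had 802 and 756 CPM with PQ, 548 and 498 CPM with NAC, and 635 and 779 CPM in control and fell with NAC (log2 fold change -0.43 ± 0.10, adjusted p = 0.00559). With PQ the gene that rose was Epas1, which encodes HIF-2 alpha, with 33.8 and 36.9 CPM with PQ, 12.0 and 15.4 CPM with NAC, and 15.2 and 12.7 CPM in control (log2 fold change 1.34 ± 0.15, adjusted p = 1.15e-05). Those that fell were Ddit4, Egln1, Vegfa, Vhl and Ankrd37, with log2 fold changes between -0.69 and -0.41. Of these 5 DESeq2 called 3 (Ddit4, Egln1 and Vegfa), and limma called 2. Ankrd37 shares 22.7% of its exonic bases with a gene on the opposite strand.

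Among 8 genes of the pentose phosphate branch, which makes NADPH from glucose-6-phosphate, 2 rose and 2 fell with PQ, and 0 rose (0 at an unadjusted p under 0.05) and 4 fell with NAC. G6pdx, its entry enzyme, had 231 and 223 CPM with PQ, 126 and 125 CPM with NAC, and 190.3 and 175 CPM in control. It rose with PQ (log2 fold change 0.31 ± 0.09, adjusted p = 0.0241) and fell with NAC (log2 fold change -0.54 ± 0.09, adjusted p = 0.000390), and 13.6% of its exonic bases are shared with a gene on the opposite strand. Pgd, which makes the branch's other NADPH, rose with PQ (log2 fold change 0.36 ± 0.10, adjusted p = 0.0163). Rpia and Tkt, of the non-oxidative arm, fell with PQ (-0.99 and -0.30). With NAC the other genes that fell were Tkt (-0.61), H6pd (-0.81) and Taldo1 (-0.35).

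Of 15 further glycolytic isoenzymes and regulators 0 rose and 0 fell with PQ (1 and 0 at an unadjusted p under 0.05), and 1 rose and 3 fell with NAC. Aldoc, an aldolase typical of astrocytes, had 79.5 and 71.4 CPM with PQ, 162 and 162 CPM with NAC, and 79.9 and 72.4 CPM in control and rose 2.12-fold with NAC, while Aldoa fell. Bsg, the partner protein that brings MCT1 and MCT4 to the cell surface, had 919 and 804 CPM with PQ, 437 and 523 CPM with NAC, and 844 and 799.7 CPM in control and fell with NAC (log2 fold change -0.78 ± 0.10, adjusted p = 2.67e-05). Tigar (-0.51) and Hkdc1 (-1.14) fell too by edgeR, but DESeq2 called 1 of the 3 falls, that of Bsg. Of 20 genes of glycogen metabolism 1 rose and 1 fell with PQ (Gaa and Ppp1r3c), and 2 rose and 6 fell with NAC. Gbe1, the glycogen branching enzyme, had 367 and 276 CPM with PQ, 117 and 125 CPM with NAC, and 305 and 281 CPM in control and fell 2.42-fold with NAC. Stbd1, a glycogen-binding protein, fell with NAC from a low level, with 4.48 and 4.09 CPM with PQ, 0.742 and 0.891 CPM with NAC, and 3.64 and 5.09 CPM in control. Pgm1 fell with a log2 fold change of -0.44, Epm2a and Pgm2 also fell, and Pygl and Phkb rose, which DESeq2 did not call. Pgm1 shares 13.6% of its exonic bases with a gene on the opposite strand.

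Of 14 other pyruvate enzymes 1 rose (Me1) and 2 fell with PQ, and 1 rose (Pcx, not called by DESeq2) and 2 fell with NAC. Pck2, mitochondrial phosphoenolpyruvate carboxykinase, fell with both agents, with 20.6 and 19.0 CPM with PQ, 28.7 and 25.4 CPM with NAC, and 52.96 and 82.7 CPM in control. Gpt2, which links pyruvate with alanine, fell with PQ (log2 fold change -1.08 ± 0.12, adjusted p = 9.50e-06), and Me2, a malic enzyme, fell with NAC (log2 fold change -0.84 ± 0.10, adjusted p = 1.49e-05). Among 17 citric acid cycle genes 1 rose and 2 fell with PQ, and 1 rose and 4 fell with NAC (limma called 2 of the 4), with Idh2 lower with both (-0.43 and -0.68). Suclg2 fell with PQ (-0.58) and rose with NAC (0.36). Among 9 genes of the NADH shuttles 0 rose (2 at an unadjusted p under 0.05) and 1 fell with PQ (Gpd1l), and 2 rose and 2 fell with NAC (1 and 1 by DESeq2), with Got1 at -0.83 and Gpd1 at 0.53. Of 12 other regulators of glycolytic genes 1 rose (Prkaa2, not called by DESeq2) and 1 fell with PQ, and 3 rose and 0 fell (1 at an unadjusted p under 0.05) with NAC. Txnip, which restrains glucose uptake, had 2.29 and 2.09 CPM with PQ, 19.5 and 21.1 CPM with NAC, and 12.9 and 19.2 CPM in control and fell 7.31-fold with PQ, with 19.4% of its exonic bases shared with a gene on the opposite strand. Myc had 79.0 and 82.7 CPM with PQ, 136 and 139.7 CPM with NAC, and 89.95 and 78.8 CPM in control and rose with NAC (log2 fold change 0.71 ± 0.10, adjusted p = 5.02e-05), as did Arrdc4 and Trp53.

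Cell markers were read in the same way. Over all tested genes 9.07% were called higher and 8.80% lower with PQ, and 8.65% higher and 9.26% lower with NAC. Of 8 tested astrocyte markers 2 rose with PQ and 5 rose with NAC, and 0 fell with either (0 at an unadjusted p under 0.05). Their summed level was 404 and 399 CPM with PQ, 468 and 492 CPM with NAC, and 350.2 and 306 CPM in control. A large part of this sum is Sox9, which is also in the stem cell list. Sox9 had 227 and 219 CPM with PQ, 158 and 174 CPM with NAC, and 199.8 and 164 CPM in control. The astrocyte markers that rose with NAC were Apoe, Aldoc, Aqp4, Slc1a2 and Gfap, and those that rose with PQ were Apoe and Aldh1l1. Aldh1l1 had 7.39 and 10.07 CPM with PQ, 3.43 and 2.08 CPM with NAC, and 4.25 and 3.53 CPM in control. It rose 2.25-fold with PQ (adjusted p = 0.00389), while with NAC it was lower without being called (log2 fold change -0.49, adjusted p = 0.301). Gfap, a defining astrocyte marker, had 5.41 and 4.75 CPM with PQ, 11.0 and 13.8 CPM with NAC, and 5.96 and 4.57 CPM in control and rose 2.34-fold with NAC (adjusted p = 0.000342). Aqp4, a water channel, rose 3.38-fold with NAC (adjusted p = 1.53e-05). Apoe, a lipid carrier, had 29.0 and 42.6 CPM with PQ, 54.0 and 59.5 CPM with NAC, and 12.9 and 16.3 CPM in control, and it rose with both agents, 2.46-fold with PQ and 3.88-fold with NAC (adjusted p = 5.28e-05 and 2.49e-07). Of 12 tested stem cell markers 1 rose and 4 fell with PQ, and 1 rose and 3 fell with NAC (limma called 1 of the 3). For each agent, 1 of 12 higher was near the share over all tested genes. Those that fell with NAC included Vim, with 4871 and 4594 CPM with PQ, 2467 and 2489 CPM with NAC, and 4306 and 4058 CPM in control. Of 5 tested oligodendrocyte lineage markers 0 rose with PQ (0 at an unadjusted p under 0.05) and 3 rose with NAC. Their summed level was 1582 and 1782 CPM with PQ, 1914 and 2138 CPM with NAC, and 1807 and 1590.3 CPM in control. The 4 cycling markers (Mki67, Top2a, Ccnb1 and Mcm5) fell with PQ and were not called with NAC. Their summed level was 1282 and 1101 CPM with PQ, 2678 and 2382 CPM with NAC, and 2223 and 2201 CPM in control. The part of these marker differences in the results above was not tested.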

How the data were processed

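RNA from 6 libraries of mouse neural stem and progenitor cultures was sequenced on the BGISEQ-500 after random-primed reverse transcription, per the labels' protocols. Per the file headers, the deposited tables hold for each gene an expected count (an estimate that need not be whole) and FPKM. RSEM, Bowtie2 2.2.5, HISAT2 2.0.4 and the mm10 build are listed, with no role given, per the submitters' processing notes. Where a table lacked a gene, 0 was entered. Of 17254 gene identifiers 17199 carried a name, while 55 without a name took 0.0724% to 0.0789% of a library's counts.

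After rounding of the expected counts, testing used edgeR 4.0.16 (R 4.3.3): filterByExpr (minimum count 10, minimum total 15), TMM factors, and 1 quasi-likelihood fit of the 6 libraries with group means, leaving 3 residual degrees of freedom. The Benjamini-Hochberg adjustment covered all 12813 genes tested. An SE was taken from the log2 fold change and its F statistic (size over root F). FPKM values were used for levels and shares between genes and, as log2(FPKM + 0.5) or log2(FPKM + 0.1), in limma 3.58.1 as alternatives, as was DESeq2 1.42.0. The fits were tested on simulated data. Copies were sought with blastn (at least 95% identity over at least 50% of a transcript), exon overlaps in GENCODE M21, and promoter windows are RefSeq's. Gene coordinates are RefSeq's on GRCm38.p6.

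The members and lists were chosen with earlier results of these data known. All 32 members are named, and of each other list up to 4 called genes by smallest p in a comparison; further genes named in short counts, and partner genes, were chosen after their values were seen. The marker lists of endothelial cells (0 tested members, summed levels of 0.834 to 2.19 CPM) and of fibroblasts and pericytes (5 tested, 2 higher and 1 lower with PQ, 1 higher and 0 lower with NAC, 1 at an unadjusted p under 0.05; DESeq2 called 0 of these higher) are given here only. Of 4 tested neuronal markers 0 rose (0 at an unadjusted p under 0.05) and 1 fell (Tubb3, not called by DESeq2) with PQ, and 1 rose (Map2) and 2 fell (Eno2 and Tubb3) with NAC. Values of some genes in these lists are not reported here.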

Additional observations from a re-analysis of the deposited data

How the results depend on the processing

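Depth limits the low genes Pfkfb4, Mpc2 and Pfkfb2, and 2 libraries a group limit every call. The labels give no replicate numbers, but the titles number the libraries 8 to 10 and 11 to 13, each run with 1 library per group, and do not say that a run marks a batch. A replicate block on these runs, added after the data were seen, left 2 residual degrees of freedom. With it 1 of the 32 genes was lower with PQ (Pfkl and Ldha were not called, adjusted p = 0.0728 and 0.0867), and no other call among the 32 changed. Same-run deviations correlated over genes at 0.11 (PQ and NAC), -0.07 (PQ and control) and -0.11 (NAC and control), so the runs did not deviate together in every group. No result changed sign with its call. With NAC 18 to 22 of the 32 genes were lower under all alternatives run. Those higher were 1 with library size only (Slc16a1), 1 with no filter (Mpc1), and 0 to 2 when each library was left out in turn. With PQ the number higher was 2 with no filter and 1 to 2 over the left-out libraries. The number lower with PQ was 1 with library size only, 1 with limma on either FPKM scale, and 1 to 4 over the left-out libraries. PQ against NAC gave 18 to 24 higher and 0 to 1 lower when libraries were left out. PQ against NAC calls lost without 1 library were those of Hk2, Pgk1, Eno1, Ldhb, Pfkfb3, Pfkfb4, Pdk1, Pdhb and Dlat. Over all genes, leaving out each library gave 438 to 1114 higher and 391 to 1087 lower with PQ, 658 to 1048 higher and 680 to 1109 lower with NAC, and 1273 to 2215 higher and 1154 to 2227 lower for PQ against NAC. The lowest of these were without PQ replicate 2 for PQ against control and PQ against NAC, and without NAC replicate 1 for NAC against control. DESeq2 called 736 genes higher with PQ. The cause of these changes was not tested. With ACGTG alone, promoter windows with a motif numbered 21 for the 32 genes, 3296 for tested genes and 6447 for all. Adding near-identical copies and dividing counts by length in place of FPKM changed no call among the 32 genes, and no share by more than the spread between replicates. The copy search used transcripts because no protein table was used here.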

Other observations

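Gapdh is widely used as a reference gene for scaling expression measurements, so other common reference genes, a list chosen after values were seen, were read beside its 1.80-fold fall with NAC. Of these, Hprt (log2 fold change -0.88 ± 0.12, adjusted p = 5.67e-05) and Ywhaz (log2 fold change -0.33 ± 0.09, adjusted p = 0.0153) also fell with NAC by edgeR. When each library was left out in turn, the adjusted p of Ywhaz reached 0.179. Hprt had 90.5 and 76.7 CPM with PQ, 57.1 and 43.1 CPM with NAC, and 89.95 and 95.1 CPM in control. Ppia had 1569 and 1502 CPM with PQ, 1516 and 1512 CPM with NAC, and 1496 and 1502 CPM in control, and Actb had 1346 and 1392 CPM with PQ, 1565 and 1513 CPM with NAC, and 1519.8 and 1282 CPM in control, with log2 fold changes of 0.01 and 0.14 with NAC, neither called. With PQ, B2m (0.46) rose and Tubb5 (-0.55) fell, while Gapdh was -0.03 and not called. The adjusted p of B2m reached 0.0544 when each library was left out in turn.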
